A study of Danio rerio with 6 samples.

Results

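The znf1000-series genes are the zebrafish zinc finger genes whose symbol is znf followed by a number of 4 digits that starts with 1. They were taken by symbol from the deposited table of gene counts, which gave 172 of its 30954 named genes. The table covers RNA sequencing of liver from 3 libraries labelled as scd knockout, made with CRISPR-Cas9, and 3 libraries labelled WT. The gene scd encodes stearoyl-CoA desaturase, which makes monounsaturated from saturated fatty acyl-CoA. All fish were kept at the same water temperature. Not given in the sources used here are the strain, parentage, sex and age of the fish, the edited sequence of scd, and whether a library holds 1 fish or several. Mutation and family background therefore cannot be told apart, and the p-values below measure only the spread between these libraries, which may be technical in part.

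Zinc finger proteins of the kind most of these symbols stand for carry tandem fingers, each folded around a zinc ion, that read DNA a few bases at a time. In vertebrates their genes multiply by local duplication and stand in clusters of similar copies. In mammals many of them silence transposable elements by recruiting histone-methylating complexes to chromatin. In zebrafish a large cluster lies on the long arm of chromosome 4, which replicates late and is rich in heterochromatin. The targets of the single genes are not annotated in the files used, and the symbols carry no role beyond the zinc finger name. Reads from near-identical copies may have been dropped or shared in counting, so the count of any single member is uncertain to that extent.

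The libraries differed in more than genotype. Named counts lay between 22525300 and 25853000 per library, to 6 significant digits. Transcripts of vitellogenin, the egg yolk precursor made by female liver, took 57.3%, 57.3% and 0.0433% of named counts in mutant replicates 1 to 3, against 44.1%, 51.0% and 49.8% in WT replicates 1 to 3. Scaling by edgeR's trimmed mean method (TMM) gave mutant replicate 3 a factor of 2.95, whereas the factors of the remaining libraries ran from 0.632 to 1.07. Of the total named counts, oocyte and gonad markers (32 of 33 listed genes in the table) summed to 358, 2.06 and 2.48 counts per 1e6 counts (CPM) in mutant and 328, 325 and 3.43 CPM in WT libraries. Erythrocyte markers (14 of 15) stood at 6703 CPM in mutant replicate 3 and between 170 and 264 CPM elsewhere, and leukocyte markers (12 of 12) at 696 CPM there against 68.6 to 372 CPM. Hepatocyte markers (19 of 20) were high in every library, from 52748 to 185645 CPM. The scd transcript was not called different (691, 110 and 56.6 CPM in mutant and 30.3, 18.1 and 430 CPM in WT libraries after TMM scaling, edgeR quasi-likelihood test, adjusted p = 0.786), and such a level does not check the labels.

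The zinc finger gene znf1179 was nearly lost from the mutant livers. Levels from here on are TMM-scaled CPM, which are not divided by transcript length and so do not order genes by abundance. The gene stood at 0.673, 0.945 and 0.996 CPM in mutant replicates 1 to 3, against 53.8, 68.2 and 52.0 CPM in WT replicates 1 to 3. Every WT library was far above every mutant library, and the lowest WT value was 52.1 times the highest mutant value. In reads, 104 were counted over the mutant libraries and 3353 over the WT libraries. The group means were 0.871 ± 0.174 and 58.0 ± 8.89 CPM (SD, n = 3 each), so that the mutant libraries held 1.5% of the WT level. The log2 fold change, mutant over WT, was -6.03 ± 0.33 (SE, edgeR adjusted p = 0.00239 over all genes). Of all genes tested it had the smallest unadjusted p.

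The same fall can be put as the share of znf1179 in the reads of all members, which restates it. This 1 gene supplied 45.1%, 55.8% and 60.8% of all reads of the 172 members in WT replicates 1 to 3. It supplied 0.978%, 1.22% and 1.06% in mutant replicates 1 to 3. The summed level of the 172 members was 68.8, 77.4 and 94.1 CPM in mutant libraries, against 119, 122 and 85.5 CPM in WT libraries, and these groups overlap. Without znf1179, the sum over the other members that entered the test was 51.1, 52.4 and 52.9 CPM in mutant libraries and 54.1, 45.4 and 27.3 CPM in WT libraries. WT replicate 3 was the low one.

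Of the genes within 5 places of znf1179, only znf1154, znf1169 and znf1174 could be tested, and none was called. Since edgeR called 0.241% of all genes tested, this does not show where the change ends. Gene order was read from the RefSeq annotation of GRCz12tu, another build than the GRCz11 named in the submitters' processing notes. Only chromosome and neighbourhood are therefore used. In GRCz12tu, 49 of the 172 members were found by symbol as protein-coding genes, and 21 of the 49 had another member within 5 protein-coding genes. Of the 49, 24 lie on chromosome 4 and 17 on chromosome 22. The gene znf1179 lies on chromosome 22, not in the chromosome 4 cluster. The adjacent genes of znf1179 are znf1154 and znf1184, both members, and 6 of the 10 genes within 5 places of it are members. The neighbour znf1154 stood at 1.90, 1.60 and 2.08 CPM in mutant and 2.3, 2.56 and 1.57 CPM in WT libraries (log2 fold change -0.20 ± 0.37, SE, edgeR adjusted p = 0.797). The other neighbour, znf1184, had too few reads to be tested, at 0.673, 0.288 and 0.669 CPM in mutant and 0.192, 0.157 and 0 CPM in WT libraries. Mutant and WT libraries overlapped at znf1154, and at znf1184 the mutant libraries were the higher ones. Further out, znf1169 had a log2 fold change of 0.23 and znf1174 one of 1.11, neither called (edgeR adjusted p = 0.848 and 0.281). The other genes within 5 places had too few reads to show a fall or no row in the table. At 2 genes beyond znf1174, si:dkey-15h8.17, which is no member and was chosen after its values were seen, had 0, 0 and 0 reads in mutant libraries and 19, 10 and 21 reads in WT libraries, too few for the test. Whether the region of these fish matches that annotation was not tested.

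**Figure D1:**
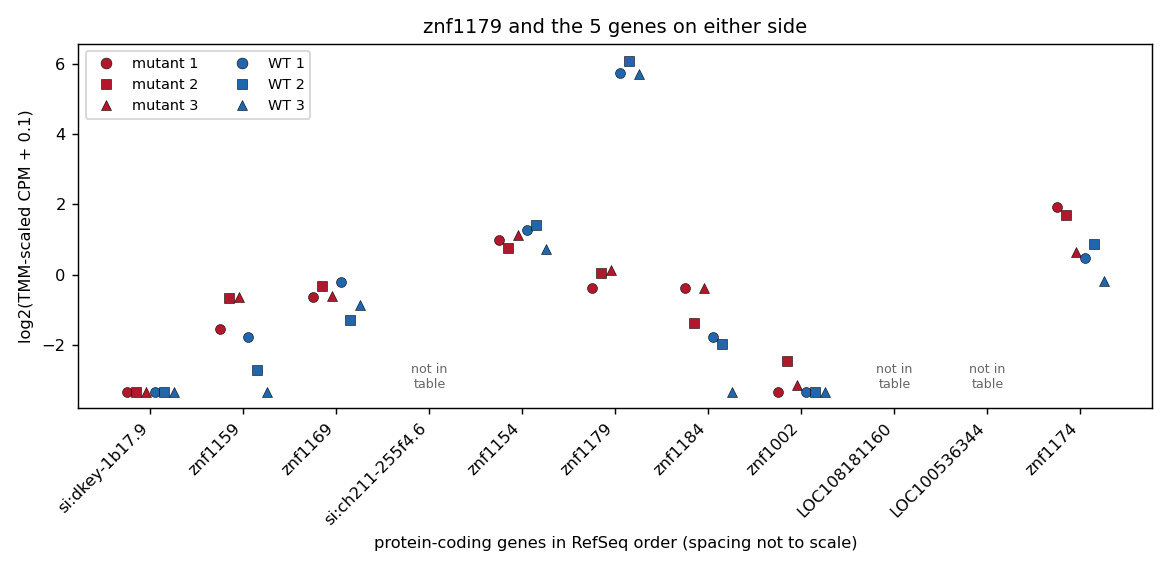
Level of znf1179 and the 5 protein-coding genes on either side in the GRCz12tu order, as log2(TMM-scaled CPM + 0.1), with red points for mutant and blue points for WT libraries. The 3 WT points of znf1179 stand apart from its 3 mutant points, and at no other gene shown are the groups set apart to that degree; genes marked "not in table" have no row of that symbol in the count table.

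Of the 172 members, 29 had enough reads to be tested by edgeR's filter on low counts, or 16.9%, against 41.6% of all named genes. The znf1179 fall was the single call among these 29, where 0.241% of the 12889 genes tested were called (31 genes). Most other members leaned the other way without passing the test. Of the 29 tested, 22 had a positive log2 fold change, and the median was 0.99, against 0.04 over all genes tested. The groups did not overlap for 13 of the 29, 11 of them higher in mutant and 2 lower, beside 27.8% of all genes tested (15.1% higher and 12.8% lower). An unadjusted p under 0.05 was reached by 8 members with a positive and 2 with a negative value, or 34.5% of the 29, beside 19.1% of all genes tested. A member low in WT could pass the filter only through its mutant libraries, so these counts describe the 29 and do not support a shift of the family. The median of the members moved with the scaling and the filter. With total counts it was 1.97, beside a median of 0.97 over all genes, and among the 11 members with at least 1 CPM in 3 libraries it was 0.45.

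**Figure D2:**
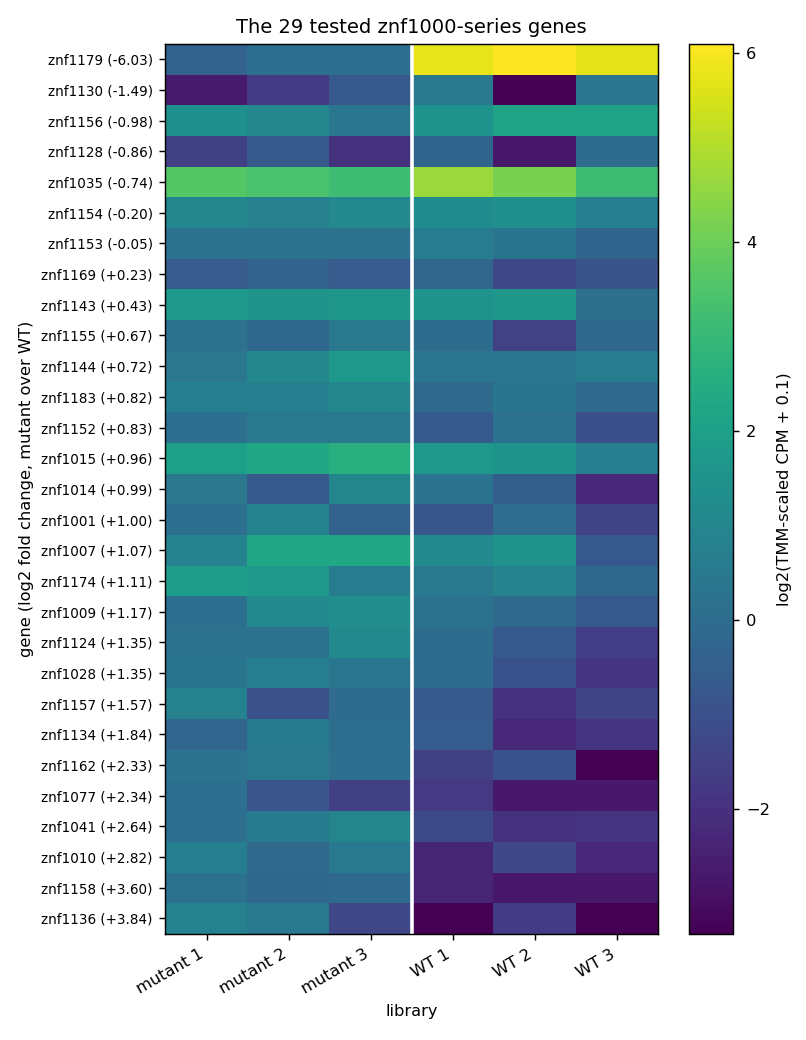
Level of each of the 29 tested znf1000-series genes in each library, as log2(TMM-scaled CPM + 0.1), mutant libraries on the left; the number beside each gene is its log2 fold change, mutant over WT. The top row, znf1179, is bright in WT and dark in mutant libraries, and the lower rows, down to znf1136, are darker in WT.

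The members with the largest positive values were read at about 1 CPM in mutant livers and were close to absent from WT livers. None was called by edgeR over all genes. The gene znf1136 stood at 1.65, 1.27 and 0.299 CPM in mutant libraries, against 0, 0.209 and 0 CPM in WT libraries (log2 fold change 3.84 ± 1.26, SE, edgeR adjusted p = 0.180). All 4 of its WT reads came from WT replicate 2, and mutant replicate 3 lay near that library. The gene znf1158 was at 1.04, 0.780 and 0.840 CPM in mutant libraries, against 0.0958, 0.0523 and 0.0561 CPM in WT libraries, which is 95 reads against 4. Its mutant libraries lay close together, and the ratio of summed scaled counts was 12.4, with an exact 95% counting interval of 4.68 to 46.4 (log2 fold change 3.60 ± 0.63, SE, edgeR adjusted p = 0.0683). Such intervals cover counting error only.

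The members znf1010 and znf1041 had a like pattern. The level of znf1010 was 1.59, 0.863 and 1.31 CPM in mutant and 0.0958, 0.314 and 0.112 CPM in WT libraries (log2 fold change 2.82 ± 0.65, SE, edgeR adjusted p = 0.104). That of znf1041 was 0.979, 1.36 and 1.84 CPM in mutant and 0.335, 0.157 and 0.168 CPM in WT libraries (log2 fold change 2.64 ± 0.56, SE, edgeR adjusted p = 0.0916). For both, each mutant library was more than double any WT library. These 4 genes were called higher by DESeq2's Wald test, with adjusted p from 0.00525 for znf1158 to 0.0331 for znf1136. That test called 8.42% of all genes and, of the 29 members, 5, the fifth being znf1179. With total counts in place of TMM, edgeR called znf1158 and znf1136 (adjusted p = 0.0309 and 0.0463) among 3.66% of all genes.

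A further 5 members lay above every WT library in all mutant libraries with a log2 fold change of at least 1. The gene znf1077 stood at 0.979, 0.452 and 0.242 CPM in mutant and 0.192, 0.0523 and 0.0561 CPM in WT libraries, and the gap between mutant replicate 3 and WT replicate 1 was small. The gene znf1162 stood at 1.1, 1.31 and 0.996 CPM in mutant and 0.240, 0.418 and 0 CPM in WT libraries, which set the groups clearly apart. The gene znf1134 stood at 0.734, 1.40 and 0.968 CPM in mutant and 0.575, 0.105 and 0.168 CPM in WT libraries, with WT replicate 1 near the mutant values. The genes znf1124 and znf1028 came close to overlapping, since WT replicate 1 reached 0.911 CPM for each and the lowest mutant values were 1.04 and 1.16 CPM. The log2 fold changes of these 5 ran from 1.35 to 2.34, with edgeR adjusted p between 0.223 and 0.296. WT replicate 1 was the highest WT library for 4 of them, and WT replicate 2 for znf1162.

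**Figure D3:**
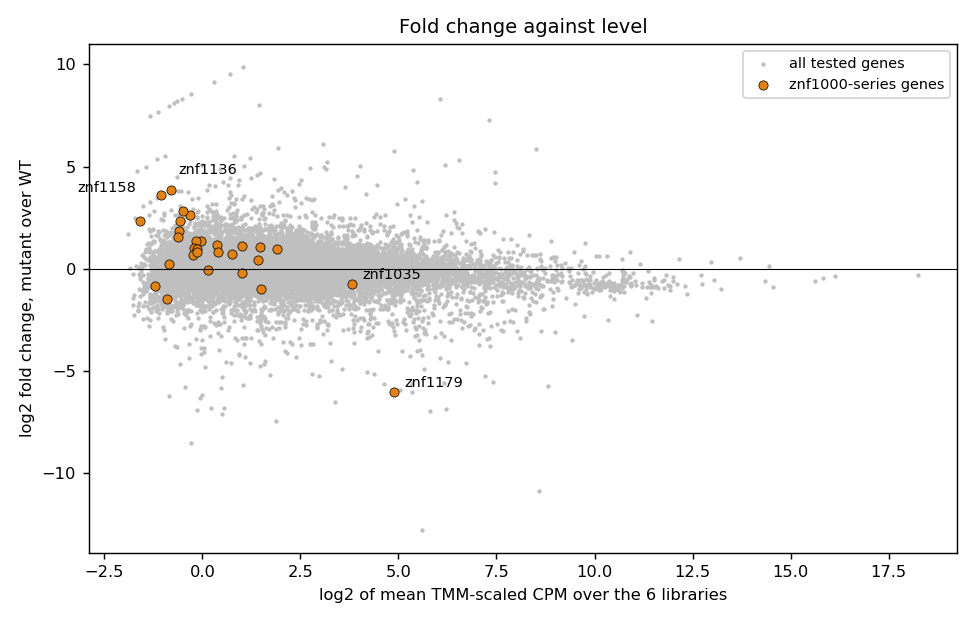
Log2 fold change, mutant over WT, against the log2 of the mean TMM-scaled CPM over the 6 libraries, for all 12889 tested genes (grey) and the 29 tested znf1000-series genes (orange). The member znf1179 lies at -6.03, apart from the other members, 22 of which lie above 0 and most of which have a low level.

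The members with the highest mean CPM besides znf1179 differed less between the groups. The gene znf1035 stood at 12.2, 10.4 and 8.95 CPM in mutant libraries, against 25.5, 18.4 and 8.81 CPM in WT libraries, and WT replicate 3 lay below all mutant libraries (log2 fold change -0.74 ± 0.40, SE, edgeR adjusted p = 0.351). Under total counts, which shifted all genes by a median of 0.97, this value was 0.04. The gene znf1015 stood at 3.85, 4.93 and 5.91 CPM in mutant and 3.16, 2.82 and 1.57 CPM in WT libraries, with no overlap (log2 fold change 0.96, edgeR adjusted p = 0.225). The gene znf1156 ran the opposite way, at 2.57, 1.93 and 1.2 CPM in mutant and 2.73, 4.24 and 4.15 CPM in WT libraries, also with no overlap (log2 fold change -0.98, edgeR adjusted p = 0.252). Besides znf1179 it was, after TMM scaling, the only tested member below every WT library in all mutant libraries. Its gap was small, from 2.57 CPM in mutant replicate 1 to 2.73 CPM in WT replicate 1. Under total counts its log2 fold change was -0.27. In the GRCz12tu order znf1156 lies 5 genes beyond znf1174, which lies 5 genes from znf1179 on chromosome 22. Between znf1179 and znf1156, znf1174 leaned upward, at 3.67, 3.16 and 1.48 CPM in mutant and 1.29, 1.73 and 0.785 CPM in WT libraries. The gene znf1007 stood at 1.71, 4.68 and 4.75 CPM in mutant and 2.16, 2.67 and 0.505 CPM in WT libraries. The gene znf1143 stood at 3.30, 2.83 and 3.03 CPM in mutant and 2.68, 3.09 and 1.01 CPM in WT libraries. Levels of znf1174, znf1007 and znf1143 overlapped between the groups, and edgeR adjusted p for these 3 lay between 0.281 and 0.635.

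Some members differed between libraries of 1 genotype as much as between genotypes. The gene znf1130 had no read in WT replicate 2 and stood at 1.25 and 1.18 CPM in WT replicates 1 and 3, against 0.0612, 0.205 and 0.512 CPM in mutant libraries. The gene znf1128 was likewise low in WT replicate 2, at 0.0523 CPM, against 0.719 and 0.898 CPM in WT replicates 1 and 3, with 0.245, 0.534 and 0.157 CPM in mutant libraries. For both genes the WT group held the highest library and the lowest library of the 6. The gene znf1014 was low in WT replicate 3 alone, at 0.112 CPM against 1.1 and 0.628 CPM in WT replicates 1 and 2, with 1.22, 0.534 and 1.89 CPM in mutant libraries. The gene znf1157 stood at 1.65, 0.411 and 0.883 CPM in mutant and 0.527, 0.157 and 0.281 CPM in WT libraries, and znf1001 at 0.979, 1.77 and 0.698 CPM in mutant and 0.479, 0.941 and 0.281 CPM in WT libraries. Across the 6 libraries, with 0.1 CPM added to each, the highest was at least 16 times the lowest for 2 of the 29 tested members, znf1179 and znf1136, or 6.90%, against 7.22% of all genes tested. At 8 times it was 7 members, or 24.1%, against 15.1%. WT replicate 3 was the lowest of the 6 libraries for 15 of the 28 tested members besides znf1179, where it was the lowest for 17.3% of all genes tested. A member low in WT could pass the filter only through its mutant libraries, so the filter bears on the count of 15.

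The remaining 7 tested members were znf1009, znf1183, znf1152, znf1144, znf1155, znf1169 and znf1153. Their log2 fold changes ran from -0.05 for znf1153 to 1.17 for znf1009, with edgeR adjusted p between 0.271 and 0.960. In this set znf1183 was without overlap, at 1.59, 1.56 and 1.89 CPM in mutant and 0.863, 1.15 and 0.842 CPM in WT libraries. The most even was znf1153, with means of 1.09 ± 0.03 CPM in mutant and 1.12 ± 0.379 CPM in WT libraries (SD, n = 3 each).

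The other 143 members had too few reads for the test, and most of what was read of them came from the mutant libraries, mutant replicate 3 above all. Of these 143, 9 had no read in any library, 40 had 1 to 9 reads in all and 94 had 10 or more, with a median of 18 and a highest sum of 173. Their summed level was 17.1, 24.1 and 40.3 CPM in mutant libraries, against 11.4, 8.47 and 6.28 CPM in WT libraries. The groups do not overlap, with means of 27.2 ± 11.9 and 8.72 ± 2.57 CPM (SD, n = 3 each). Without TMM the sums were 10.8, 25.7 and 119 CPM of total counts in mutant and 10.5, 6.40 and 4.51 CPM in WT libraries, so that mutant replicate 1 and WT replicate 1 were nearly level. Mutant replicate 3, which had high blood markers and few yolk transcripts, held 2829 of these reads, and the part of those features in its value was not tested.

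A share of reads taken within each library gave the same order of groups. It uses no scaling factor, although the filter that sets the untested genes depends on library size. Of all reads on genes too low to be tested, these 143 members took 1.64%, 2.44% and 1.88% in mutant libraries, against 1.06%, 0.739% and 0.373% in WT libraries. They make up 0.792% of such genes, but 7816 of such genes had no read in any library, against 9 of the 143. The 0.792% is therefore a low yardstick. Mutant replicate 3 was not the highest by this share of reads. At least 1 read was found for 93, 135 and 159 of all 172 members in mutant libraries, against 96, 90 and 69 in WT libraries, and here mutant replicate 1 fell among the WT libraries. Reads outside vitellogenin were 11048095, 9756362 and 23774423 in mutant libraries and 12590001, 12411940 and 12460419 in WT libraries. Mutant replicate 2, with 135 members seen, had the fewest of these reads. By TMM-scaled library size it was instead larger than every library but mutant replicate 3. Its TMM factor was 1.07, against 0.632 in mutant replicate 1 and 0.718 to 0.926 in WT libraries. The part of depth in the number of members seen was not tested.

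**Figure D4:**
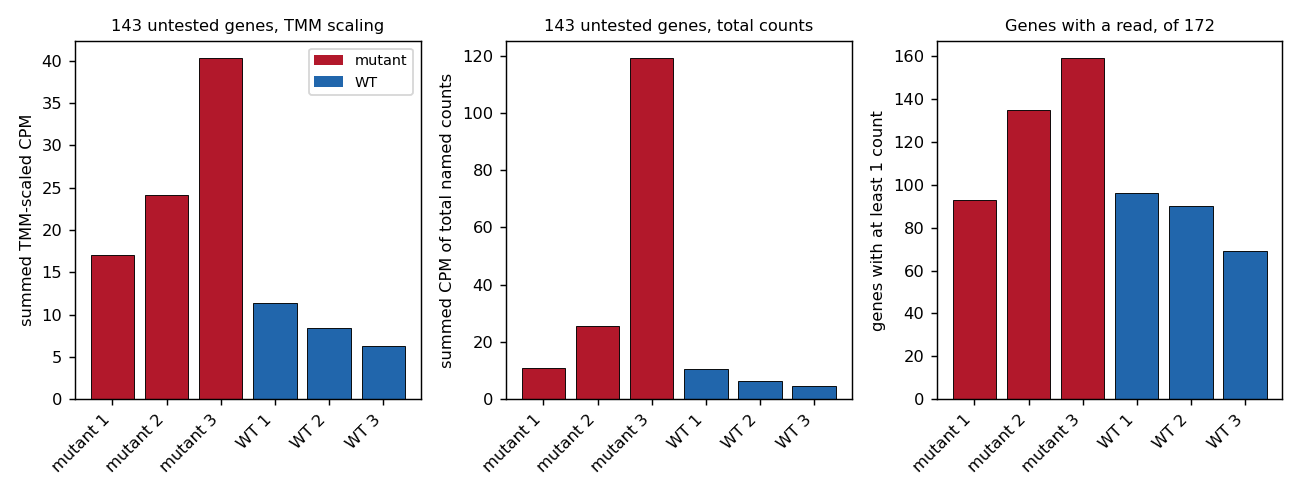
Bars give, per library, the summed TMM-scaled CPM of the 143 untested znf1000-series genes (left), the same as CPM of total named counts (middle) and the number of all 172 members with at least 1 read (right), with mutant libraries in red and WT libraries in blue. Mutant replicate 3 is the highest in each panel, at 40.3 CPM, 119 CPM and 159 genes, and WT replicate 3 the lowest, at 6.28 CPM, 4.51 CPM and 69 genes.

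Single untested members are named here for their high reads in mutant replicate 3, so its height among them follows from the choice. The gene znf1141 had 9, 24 and 136 reads in mutant libraries and 3, 0 and 1 in WT libraries. The gene znf1127 had 0, 14 and 97 reads in mutant and 3, 1 and 1 in WT libraries, and znf1107 had 0, 7 and 86 in mutant and 4, 6 and 10 in WT libraries. The first of these was above WT in all mutant libraries, whereas the other two were absent from mutant replicate 1. Of the 53 untested members with at least 20 reads in mutant replicate 3, 17 had none in mutant replicate 1, or 32.1%, against 18.5% of the 2108 untested genes of the whole table that met the same minimum. These 53 summed to 205, 431 and 2219 reads in mutant and 192, 116 and 80 reads in WT libraries. The 2108 genes summed to 7576 reads in mutant replicate 1 and 117714 in mutant replicate 3. Relative to mutant replicate 3, the summed reads of mutant replicate 1 were thus not lower for the 53 members. The 2 sets were not matched for level, so their shares of zeros are not like for like. The high sum of mutant replicate 3 follows from the minimum by which the 53 were chosen. Mutant replicate 1 has the smallest scaled library of the 6, and the part of depth in its zeros was not tested.

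**Figure D5:**
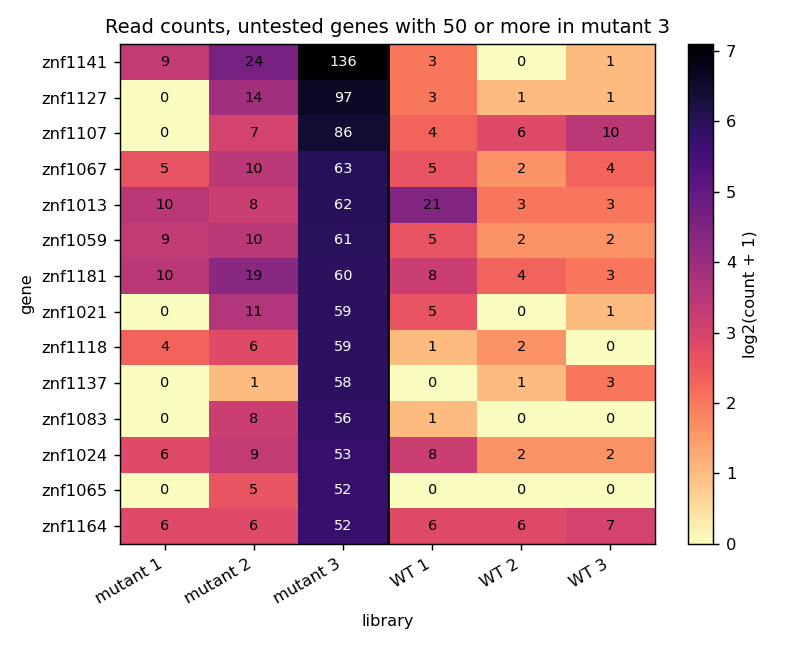
Read counts of the 14 untested znf1000-series genes with 50 or more reads in mutant replicate 3, with colour on a log2(count + 1) scale and mutant libraries on the left. The column of mutant replicate 3 is dark throughout by that choice of genes, from 52 to 136 reads, and 6 of the 14 genes have 0 reads in mutant replicate 1.

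Reads in mutant libraries and none in WT libraries were found for 41 of the 143 untested members, and the reverse for 1, with 1 read. These are 28.7% and 0.699% of the 143, against 13.4% and 6.38% of all 18065 untested genes. The bases are unlike, since 7816 of the 18065 had no read in any library, against 9 of the 143. Such genes can enter neither count, which lowers the shares over all untested genes. The mutant group also holds the largest TMM-scaled library, mutant replicate 3, and the part of depth in these counts was not tested. For 30 of the 41 the mutant reads numbered more than 3. The most were 57 for znf1065, with 0, 5 and 52 in mutant replicates 1 to 3, and 53 for znf1060, with 0, 4 and 49. Set against a floor of 3 reads over the WT group, these sums were 9.90-fold and 9.21-fold higher after scaling. That ratio takes the mutant reads as free of error and is therefore not a lower bound. The exact counting interval of the ratio between the groups had lower limits of 7.79 for znf1065 and 7.23 for znf1060. These limits cover counting error only and rest on mutant replicate 3. The gene znf1111 was spread otherwise, with 9, 1 and 10 reads. Among the 94 members with at least 10 reads, mutant replicate 3 was the highest TMM-scaled library for 63, or 67.0%, against 41.6% of all untested genes with as many reads. WT replicate 3 was the highest for 0 of the 94, against 15.1%.

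No zinc finger gene with another number was called by edgeR, which called 0.241% of all genes tested. At that share, the lack of a call is no result about these genes. The table holds 125 other genes whose symbol starts with znf and a number, whatever follows it, and 77 of them were tested. Although 0 were called, an unadjusted p under 0.05 was reached by 7 with a positive and 4 with a negative value, and DESeq2 called 4, where 19.1% of all genes reached that p and DESeq2 called 8.42%. Their median log2 fold change was 0.27, with 45 of 77 positive, and 22.1% did not overlap between groups, below the 27.8% of all genes tested. Their summed level was 449, 413 and 360 CPM in mutant libraries and 447, 375 and 315 CPM in WT libraries. The sums overlap and follow no order by genotype. The difference between these genes and the znf1000-series was not tested.

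Genes of the heterochromatin machinery, which writes and reads the silencing marks of such clusters, also showed no call. The share called by edgeR was 0.241% of all genes tested, so the lack of a call is no result about this list. Of 43 listed genes, 41 were in the table and 37 were tested, with a median log2 fold change of 0.24 and 26 of 37 positive. By edgeR 0 were called, although an unadjusted p under 0.05 was reached by 4 upward and 0 downward, and DESeq2 called 2 higher. The groups did not overlap for 5 higher and 3 lower, or 21.6%, below the 27.8% of all genes tested, and DESeq2 called 8.42% of all genes. The member with the most reads, the histone deacetylase gene hdac1, stood at 37.9, 41.7 and 40.2 CPM in mutant and 36.6, 32.2 and 28.9 CPM in WT libraries (log2 fold change 0.29, edgeR adjusted p = 0.521). All mutant libraries of hdac1 lay above its WT libraries, by a small gap. The chromatin remodeller gene atrx was level, with a log2 fold change of 0.01. The gene mphosph8, which encodes a reader of methylated histone in silenced chromatin, stood at 21.8, 15 and 17.9 CPM in mutant and 34.2, 26.8 and 22.7 CPM in WT libraries, without overlap (log2 fold change -0.62, edgeR adjusted p = 0.273).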

How the data were processed

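The deposited data are raw counts of reads per gene symbol, in 1 table. The submitters' processing notes list Trimmomatic 0.36, STAR 2.7, featureCounts 1.5.2 and the genome build GRCz11. Not given in the sources used here are the strand setting and the treatment of multi-mapping reads. One of 30955 rows names no gene (0.568% to 1.02% of a library) and was left out.

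The counts were tested with edgeR 4.0.16 in R 4.3.3 on all 6 libraries: filterByExpr with the group (12889 genes), TMM, robust quasi-likelihood test of mutant over WT, Benjamini-Hochberg adjustment over all genes tested, called under 0.05. The standard error is the log2 fold change over the square root of F. Genes were named if called, if the groups did not overlap at an absolute log2 fold change of at least 1, as the 8 with the highest mean CPM, or as the 5 with the largest range across libraries. Untested members and any further genes were named with their values known. The members, lists and rules were chosen with earlier results of these data known. Alternatives used DESeq2 1.42.0 and limma-voom (limma 3.58.1), other scalings and filters, a replicate block, an oocyte covariate and each library left out. No sequences are shown. Same-numbered libraries were not taken as pairs.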

Additional observations from a re-analysis of the deposited data

How the results depend on the processing

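The fall of znf1179 was called in all 17 alternatives, with log2 fold changes from -6.15 to -4.98 and adjusted p from 1.17e-60 to 0.0313. Calls among members numbered 3 with total counts and 5 by DESeq2's Wald test, and 1 in each other alternative, each library left out included. Calls over all genes, 31 by edgeR with TMM, numbered 472 with total counts, 211 without the filter, 1085 by DESeq2, 50 with the oocyte covariate and 2 with the replicate block, and 2 to 77 with 1 library left out (2 without mutant replicate 2, 77 without mutant replicate 1, 3, 4 and 5 without WT replicates 1, 2 and 3). Other numbered znf genes called, 0 by edgeR with TMM, were 1 with total counts and 4 by DESeq2, and heterochromatin genes 2 by DESeq2. The members' median log2 fold change of 0.99 was 1.97 with total counts, 1.68 without the filter (163 members), 0.45 at 1 CPM in 3 libraries (11 members) and 0.79 to 1.95 with 1 library left out (1.95 without WT replicate 1, 0.79 without mutant replicate 3). Members without overlap, 13 at first, were 9 with total counts (15% of all genes), 49 without the filter (19.4%), 4 at 1 CPM in 3 libraries (29.3%) and 15 to 34 with 1 library left out (33.1% to 45.2%), where the filter let in up to 54 members and fewer libraries had to be apart. With total counts the signs of znf1035 and znf1154 turned, to 0.04 and 0.80, beside a median shift of 0.97 over all genes. The count of members without overlap cannot be had with the replicate block or the oocyte covariate.

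With the replicate number as a block, znf1179 remained called (log2 fold change -6.04, adjusted p = 0.0232) and was 1 of the 2 genes called. The deviations of same-numbered libraries from their group means correlated at 0.22, -0.14 and 0.28 for numbers 1 to 3, and mutant replicates 1 and 2 correlated better with another WT number than with their own, so the numbers were not taken to pair the libraries. The 143 untested members had a median of 18 reads over 6 libraries, and the difference detectable in any single one was not worked out. Without the filter, 163 members were fitted and znf1179 alone was called. The lack of a call for the others does not show equal levels.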

Other observations

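Beyond znf1035 by 2 genes in the GRCz12tu order, si:dkeyp-84f3.9, chosen after its values were seen, stood at 2.75, 2.71 and 3.25 CPM in mutant and 2.01, 0.680 and 0 CPM in WT libraries (edgeR adjusted p = 0.424). It was absent from WT replicate 3, and a link with the members low in that library was not tested.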
